A study of Mus musculus with 2 samples.

Results

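The mouse genes *Cebpa*, *Cebpb*, *Cebpd*, *Cebpe*, *Cebpg* and *Cebpz* were followed across the cell types of the bone marrow in 2 single-cell RNA-seq libraries. These 6 genes with a C/EBP name are called C/EBP genes here, though *Cebpz* is related by name only. They were found by gene symbol among the 32285 genes of the count matrices, 1 row for each, and all 6 had UMIs (unique molecular identifiers, 1 for each captured transcript) in both libraries. The study asked how loss of the kinase MAP4K4 in hematopoietic cells changes neutrophil differentiation. One library came from control mice (Ctrl) and the other from *Map4k4* conditional knockout mice (cKO), with 1 library for each condition, and all mice were 13-14 weeks old and of C57BL/6 background. The cKO mice were *Map4k4* f/f with Mx1-Cre, a Cre recombinase under an interferon-inducible promoter, and had received 5 injections of poly I:C some weeks earlier. The Ctrl mice were littermates, written in the methods as Mx1-Cre *Map4k4*-/- and in the labels only as control, and whether they also received poly I:C was not stated. For each library, cells enriched for c-Kit, a receptor of stem and progenitor cells, were mixed with red-cell-lysed bone marrow at a 2:3 ratio, so the shares of cell types are set by this mixing. The number of mice behind a library was not stated, and Mx1-Cre acts on many cell types besides blood progenitors.

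C/EBP proteins (CCAAT/enhancer-binding proteins) are transcription factors that pair through a leucine zipper and bind DNA with the basic region next to it. In the marrow they act in sequence: C/EBPα is required for the step to granulocyte-macrophage progenitors, C/EBPε for the late granule proteins of neutrophils, and C/EBPβ and C/EBPδ act in mature myeloid cells and under inflammatory demand. C/EBPγ lacks an activation domain of its own and works mainly as a partner, and *Cebpz*, in spite of its name, encodes a CCAAT-binding protein without a leucine zipper that is related to nucleolar proteins of ribosome assembly.

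On GRCm38, with GENCODE annotation matched by identifier for all 6 genes, *Cebpa* lies at chr7:35119293-35121928 on the plus strand and *Cebpg* at chr7:35046422-35056573 on the minus strand, 62719 bases apart and transcribed away from each other. *Cebpb* lies at chr2:167688915-167690418 (plus), *Cebpd* at chr16:15887286-15891031 (plus), *Cebpe* at chr14:54710360-54712174 (minus) and *Cebpz* at chr17:78919006-78937066 (minus). *Cebpb* has 1 exon in its only transcript, *Cebpe* has 2 exons, and *Cebpz* has up to 16. Genes are annotated on the opposite strand over part of *Cebpa*, *Cebpb*, *Cebpd*, *Cebpg* and *Cebpz*, and on its own strand over *Cebpg*, and since the strand setting of the counting is not given in the sources used here, their UMIs are uncertain to that extent. Over *Cebpz* this is *Cebpzos*, which shares 1301 bases with it and had 1560 UMIs in the Ctrl library against 7463 of *Cebpz*. Over *Cebpb* it is *Tmem189* (1923 against 3257 UMIs) and over *Cebpd* *Spidr* (1420 against 8103), while those over *Cebpa* and *Cebpg* had at most 9 UMIs. *Cebpa* and *Cebpg* are neighbours on the chromosome, and the bases before their start sites are shown so that both promoters can be compared. RefSeq promoters (GRCm38.p6) were matched for *Cebpa*, *Cebpb* and *Cebpg*, and *Cebpd*, *Cebpe* and *Cebpz* had no entry. Each sequence is the 250 bases before the start, 5′ to 3′ on the strand of the gene as RefSeq places that start, at chr7:35119043-35119292 for *Cebpa* and chr7:35056567-35056816 for *Cebpg*, with TATAAA or CCAAT in capitals (read on either strand, so that ATTGG is CCAAT of the other strand).
Cebpa: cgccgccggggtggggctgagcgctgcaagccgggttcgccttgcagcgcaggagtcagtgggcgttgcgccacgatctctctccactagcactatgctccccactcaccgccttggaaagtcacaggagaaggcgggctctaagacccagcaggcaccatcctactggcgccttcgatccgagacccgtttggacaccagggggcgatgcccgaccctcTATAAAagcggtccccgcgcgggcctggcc
Cebpg: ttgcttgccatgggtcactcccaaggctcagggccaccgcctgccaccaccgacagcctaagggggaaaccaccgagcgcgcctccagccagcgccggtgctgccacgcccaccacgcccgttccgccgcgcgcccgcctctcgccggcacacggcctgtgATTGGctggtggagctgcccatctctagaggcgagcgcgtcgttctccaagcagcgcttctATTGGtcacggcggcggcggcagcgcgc
The *Cebpa* sequence held 1 TATAAA, 30 bases before the start, and no CCAAT. The *Cebpg* sequence held 2 CCAAT, 89 and 28 bases before the start, and no TATAAA. Among all 32851 promoters of 300 bases, 13.6% held TATAAA and 37.4% held CCAAT, so both are common letters and describe these windows only.

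The Ctrl library had 10220 barcodes and 71527701 UMIs and the cKO library 6872 barcodes and 64393950 UMIs. Of these, 9965 Ctrl cells (median 4111 UMIs) and 6718 cKO cells (median 6243.5 UMIs) passed the filters. *Map4k4* had 72.6 CPM (the usual scaling of a gene's UMIs by all UMIs of the cells summed) in Ctrl and 64.3 in cKO, a log2 ratio of -0.17 (95% counting interval -0.23 to -0.12), and in the ProNeu-like cells it was higher in cKO (log2 0.91). The deleted part of the gene is not given in the sources used here, and UMIs from the end of a transcript outside it do not check the deletion. By RT-PCR, the study reports that *Map4k4* transcript was lost in stem and progenitor cells of the injected mice. The libraries share 3010 barcodes, and cells with the same barcode were no more alike across libraries (median profile correlation 0.417) than other pairs (0.431).

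Cells were assigned to types by marker genes, and 8197 Ctrl cells (82.3%) and 4914 cKO cells (73.1%) were assigned. The 8 types with at least 50 cells in both libraries are compared: HSC/MPP-like (stem cells and multipotent progenitors, 435 Ctrl and 129 cKO cells), GMP-like (granulocyte-macrophage progenitors, 221 and 68), ProNeu-like (neutrophil progenitors with primary granule genes, 732 and 780), cycling PreNeu/imNeu-like (dividing cells with secondary granule genes, 1322 and 762), imNeu-like (immature neutrophils, the same genes without division, 636 and 665), mNeu-like (mature neutrophils, 2195 and 1861), monocyte-like (698 and 356) and MEP-like (megakaryocyte-erythroid progenitors, 307 and 82). The type names are held unevenly by the data: all 13 mNeu and all 10 ProNeu markers were highest in their own type, whereas none of the 9 GMP markers was highest in the GMP-like cells and 2 of 9 MEP markers were highest in the MEP-like cells, with 35.3% of GMP-like cells close to the limit of assignment. The leading genes of the GMP-like cells were *Serpinf1*, *Gria3* and *Irf8*, and the name stands only for the markers that chose them. Of the cells with secondary granule genes, 10.2% lay near the line that separates dividing from non-dividing cells. Every level is a sum over the cells of 1 library, with an interval that covers counting error only, and no test between conditions is possible with 1 library each. A lower level in a type cannot tell fewer expressing cells from less RNA in each.

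*Cebpa*, the C/EBP gene of myeloid commitment, was highest in progenitors and monocytes and nearly absent once secondary granule genes were on. In the Ctrl library it had 59.0 CPM (52.5 to 66.1) in HSC/MPP-like, 57.4 in GMP-like, 54.7 in ProNeu-like and 50.7 in monocyte-like cells, and these 4 neighbours had overlapping intervals. In the cKO library the same 4 types had 40.1, 50.9, 40.0 and 38.4 CPM and overlapped as well. The step from ProNeu-like to cycling PreNeu/imNeu-like cells was 7.64-fold down in Ctrl (54.7 to 7.15 CPM) and 13.2-fold down in cKO (40.0 to 3.04 CPM). In CPM, mature neutrophils had more again than imNeu-like cells, 20.4 against 5.88 in Ctrl and 11.5 against 4.53 in cKO, with intervals apart in both. Per cell it was 0.0556 against 0.033 UMIs in Ctrl and 0.0731 against 0.0541 in cKO. The primary granule genes *Elane* (340 against 201 CPM in Ctrl, 223 against 85.3 in cKO) and *Mpo* (497 against 297, 185 against 90.9) were higher too. *Myb* was lower (50.7 against 58.6, 20.1 against 29.7). The part of RNA from other cells in this *Cebpa* step was not tested. *Cebpa* was lowest in MEP-like cells (4.63 and 2.12 CPM), where 24 and 5 UMIs were counted. A UMI was found in 53.8% of Ctrl ProNeu-like cells (median depth 16835.5 UMIs) and in 2.06% of B-like cells (2119 UMIs), which should lack the gene. Cells with at least 1000 UMIs were then thinned to 1000 UMIs and the others left out, here and in all thinned shares below. These shares were then 5.64% of 726 ProNeu-like and 0.718% of 363 B-like cells, out of 732 and 389.

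Outside these 8 types, *Cebpa* was higher still in basophil/mast-like cells, at 143 CPM (118 to 171) in 91 Ctrl cells and 282 CPM (219 to 357) in 26 cKO cells. The Ctrl value was above that of all other types with at least 50 cells. In HSC/MPP-like cells, those with *Flt3* and without *Hlf* or *Mecom* UMIs, the multipotent side, had 69.0 CPM of *Cebpa* in Ctrl and 55.4 in cKO, and those with *Hlf* or *Mecom* and without *Flt3*, the stem cell side, had 51.5 and 37.1 CPM. The order was the same in both libraries, but these values rest on 19 to 81 UMIs each and their intervals overlapped.

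*Cebpe*, the factor of secondary granule genes, was the most abundant of the 6 in the neutrophil precursors and its peak level was nearly equal in both libraries. Cycling PreNeu/imNeu-like cells had 578 CPM (565 to 591) in Ctrl and 578 CPM (565 to 591) in cKO. ImNeu-like cells followed with 515 and 452 CPM, ProNeu-like with 241 and 253, and mNeu-like with 163 and 100, and none of these neighbours overlapped in either library. The step from GMP-like to ProNeu-like cells was 8.39-fold up in Ctrl and 14.1-fold up in cKO. In the cycling cells 92.4% of Ctrl cells and 96.6% of cKO cells had a *Cebpe* UMI, and after thinning 42.0% and 42.6%. T/NK-like cells of the Ctrl library, which should lack it, had a UMI in 20.5% (median depth 3022.5 UMIs) and 7.56% after thinning.

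Outside the neutrophil line, low *Cebpe* levels were found together with RNA of neutrophil granule genes. *Camp*, a secondary granule gene of neutrophil precursors, had 60900 CPM in Ctrl cycling PreNeu/imNeu-like cells and still 5780 CPM in B-like and 2930 CPM in ProB-like cells. For each 1000 *Camp* UMIs, *Cebpe* had 9.49 in the cycling and 9.14 in the imNeu-like cells, 12.5 in B-like and 17.8 in ProB-like cells, and 46.3 in ProNeu-like cells (Ctrl). HSC/MPP-like cells had 27.3 and MEP-like cells 23.1, with 4.31% and 2.71% of thinned cells positive, at or below the 4.57% of B-like cells, so no expression is read from these shares. Their ratios to *Camp* were above those of B-like and ProB-like cells, and the source of these UMIs was not tested. *Camp* was 2080 CPM in Ctrl and 599 CPM in cKO HSC/MPP-like cells, 1670 and 833 in monocyte-like and 977 and 830 in MEP-like cells. The same ratio for *Cebpa* was 28.4 in HSC/MPP-like and 10.5 in ProNeu-like cells against 1.32 in B-like cells.

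**Figure D1:**
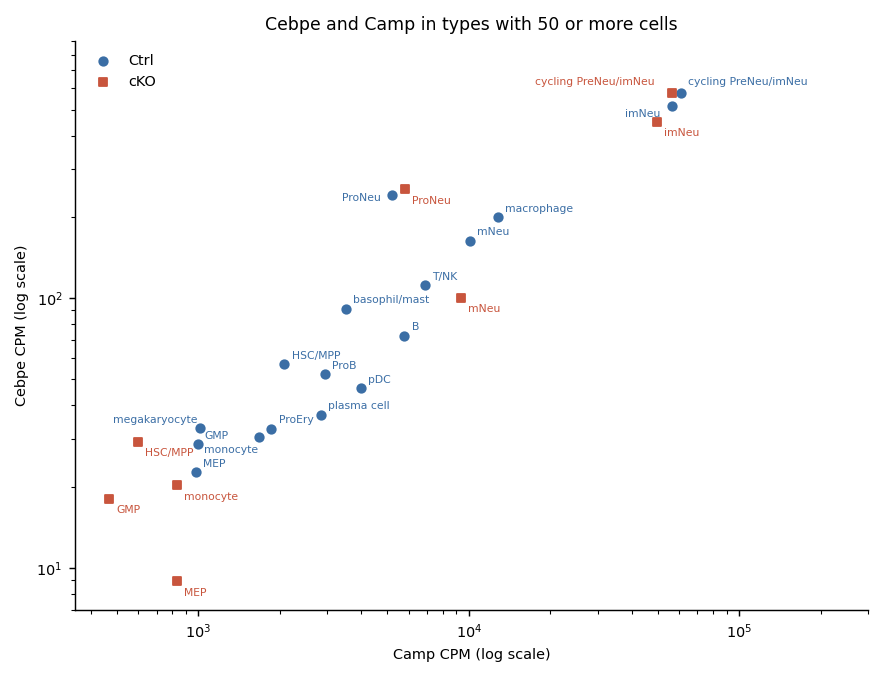
*Cebpe* CPM (y axis, log scale) against *Camp* CPM (x axis, log scale) for each type with at least 50 cells, 17 types in Ctrl (circles) and 8 in cKO (squares). B-like cells, at 72.5 and 5780 CPM, have 12.5 *Cebpe* UMIs for each 1000 of *Camp* beside 9.49 in the cycling cells, while ProNeu-like cells of both libraries, at 241 and 253 CPM of *Cebpe*, have a higher one.

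*Cebpd*, known from the acute-phase response, was a larger share of all UMIs at each later stage of the neutrophil line. In Ctrl it had 31.0 CPM in HSC/MPP-like, 77.7 in GMP-like, 102 in ProNeu-like, 165 in cycling PreNeu/imNeu-like and 198 in imNeu-like cells, and the mNeu-like cells were highest with 305 CPM. In cKO the same stages had 31.9, 50.9, 96.9, 151, 168 and 283 CPM, the same order. All stages of this line were apart from the next in Ctrl, and in cKO HSC/MPP-like and GMP-like cells overlapped. Monocyte-like cells had 99.4 CPM in Ctrl and 149 CPM in cKO, the fifth and the fourth place in the order. Among thinned cells, 26.7% of 2020 Ctrl and 25.5% of 1731 cKO mNeu-like cells had a *Cebpd* UMI, against 1.97% of B-like cells. Unthinned, the mNeu shares were 51.1% and 71.3% at median depths of 2347 and 5930 UMIs, so the raw shares differ where the thinned ones are close.

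*Cebpb*, which acts in macrophages and in emergency granulopoiesis, was a gene of monocytes and mature neutrophils. Monocyte-like cells had 157 CPM (147 to 168) in Ctrl and 116 CPM (106 to 126) in cKO, and mNeu-like cells 104 and 64.8 CPM. The remaining 6 of the 8 types lay at or below 43.8 CPM in Ctrl and 29.7 CPM in cKO, both in GMP-like cells. Outside the 8 types, macrophage-like cells had 105 CPM in 146 Ctrl cells (70.1 to 152, from 28 UMIs) and basophil/mast-like cells 56.1 CPM in Ctrl (41.0 to 74.8). Along the neutrophil line *Cebpb* was lower in imNeu-like than in cycling cells (19.3 against 36.8 CPM in Ctrl, 11.3 against 23.1 in cKO) and then 5.36-fold higher in mNeu-like cells in Ctrl and 5.72-fold higher in cKO. The dip at the imNeu-like stage was outside the counting intervals in both libraries.

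*Cebpg* was the most evenly spread of the 6, with 4.22-fold between its highest and lowest of the 8 types in Ctrl and 3.85-fold in cKO, where *Cebpe* had 25.6-fold and 64.8-fold. Its highest level was in monocyte-like cells (94.3 and 69.6 CPM) and its lowest in the secondary granule cells (22.4 CPM in the cycling cells of Ctrl, 18.1 CPM in the imNeu-like cells of cKO). HSC/MPP-like, GMP-like, mNeu-like and MEP-like cells of Ctrl lay between 43.2 and 54.8 CPM with overlapping intervals. Lymphoid types had it too, with 74.1 CPM in ProB-like and 62.0 CPM in B-like cells (Ctrl), and pDC-like cells had 85.5 CPM (60.2 to 118).

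Among the 8 types, *Cebpz* was highest in the progenitors. Outside them it was not confined to progenitors, with 130 CPM in B-like, 120 in ProB-like and 114 in T/NK-like cells (Ctrl). MEP-like cells had 201 CPM in Ctrl and 147 in cKO, HSC/MPP-like cells 186 and 138, GMP-like cells 163 and 99.4, ProNeu-like cells 127 and 82.1, and mNeu-like cells 26.8 and 19.2 CPM. MEP-like and HSC/MPP-like cells overlapped in both libraries. The step from ProNeu-like to cycling PreNeu/imNeu-like cells was 3.64-fold down in Ctrl and 3.51-fold down in cKO, at the same place as that of *Cebpa*.

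**Figure D2:**
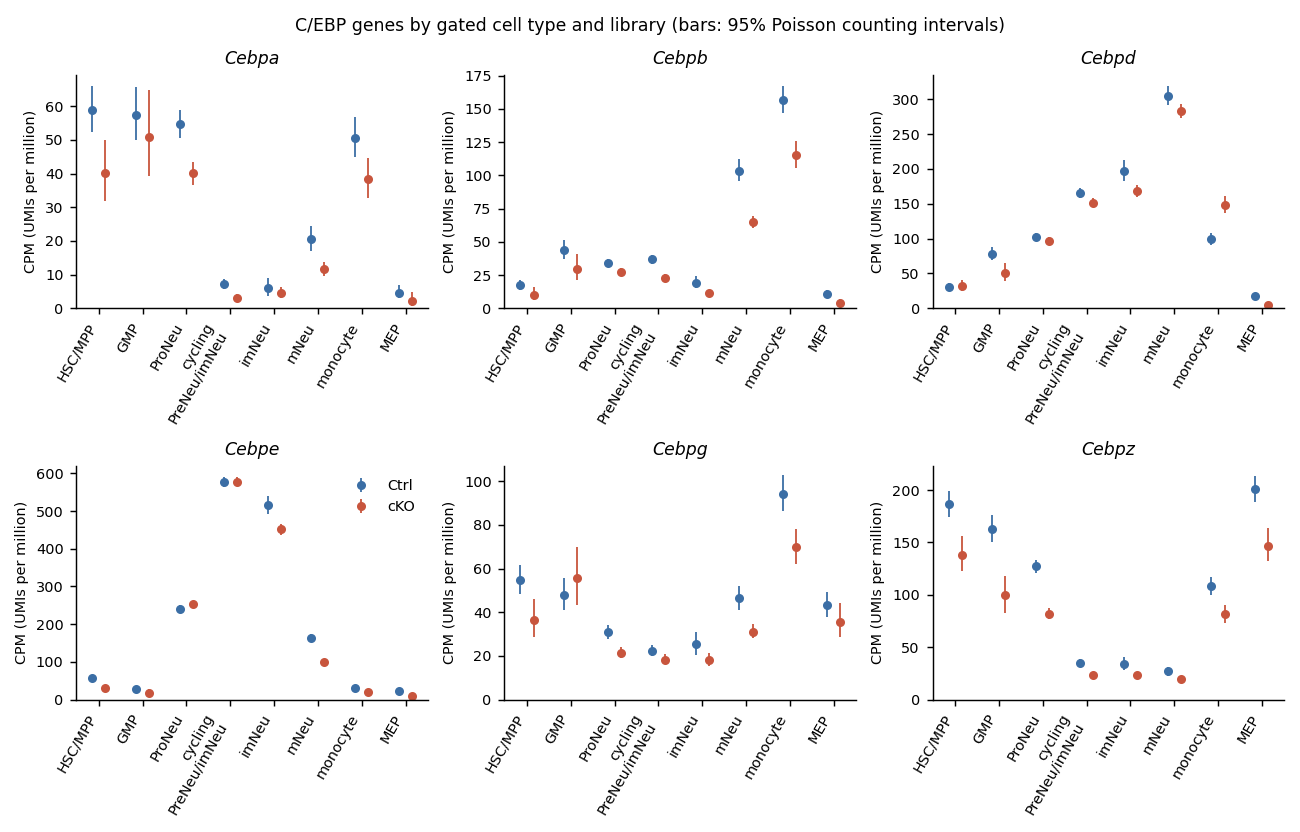
CPM of each C/EBP gene (y axis, from 0) in the 8 gated types for the Ctrl (blue) and cKO (red) libraries, with bars for 95% Poisson counting intervals. *Cebpa* and *Cebpz* are high on the left and low in the secondary granule cells, *Cebpe* peaks at 578 CPM in the cycling cells of both libraries, and *Cebpd* is highest in mNeu-like cells (305 and 283 CPM).

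The makeup of the C/EBP pool, in which *Cebpz* is counted, therefore differed by type. Counted over the 6 genes, with 1 UMI for each captured transcript end and no correction for differences in capture between genes, the summed level was 844 CPM in Ctrl and 797 CPM in cKO cycling PreNeu/imNeu-like cells, and 299 and 202 CPM in MEP-like cells. *Cebpe* made up 68.4% and 72.5% of the C/EBP UMIs in the cycling cells, 64.7% and 66.7% in imNeu-like, 40.9% and 48.6% in ProNeu-like and 24.5% and 19.7% in mNeu-like cells. *Cebpd* took the leading place in mNeu-like cells with 45.9% and 55.5%. In monocyte-like cells *Cebpb* led in Ctrl with 29.1%, and in cKO *Cebpd* led with 31.4% while *Cebpb* had 24.4%. In HSC/MPP-like and MEP-like cells *Cebpz* led, with 48.3% in cKO HSC/MPP-like cells and 67.1% and 72.7% in the MEP-like cells of Ctrl and cKO.

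**Figure D3:**
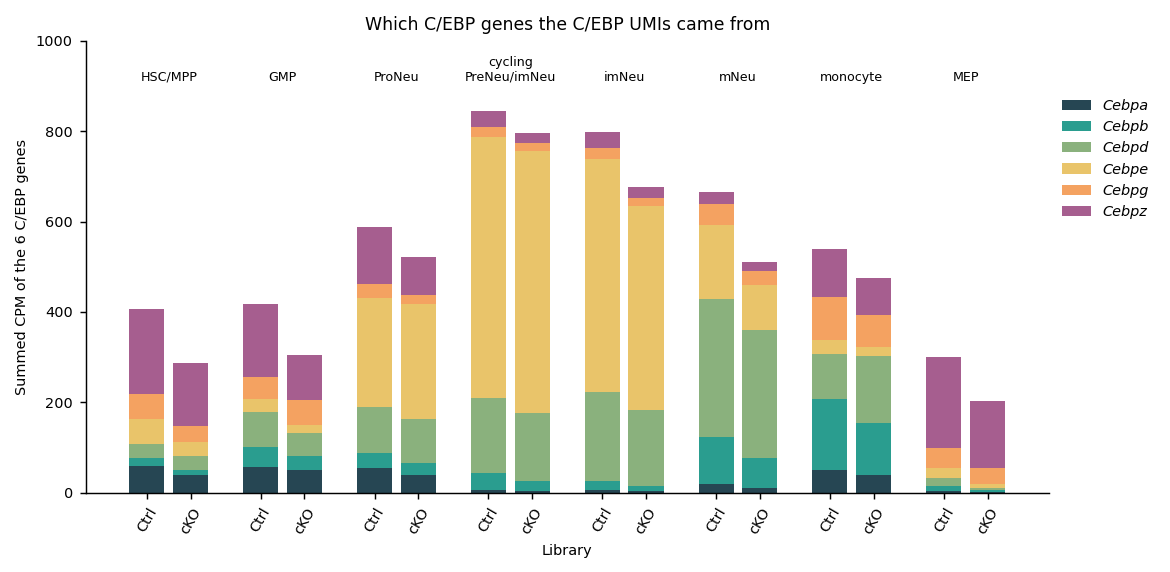
Summed CPM of the 6 C/EBP genes (y axis, bar height) in each type and library, with each bar split by gene. *Cebpe* fills most of the bars of the secondary granule cells (68.4% in Ctrl and 72.5% in cKO cycling cells). *Cebpd* leads in mNeu-like cells and *Cebpz* in HSC/MPP-like, GMP-like and MEP-like cells.

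To see the passage from *Cebpa* to *Cebpe* within the types, the ProNeu-like and cycling PreNeu/imNeu-like cells were ordered by the share of secondary granule RNA in their granule RNA and divided into 6 bins. *Cebpa* had 58.2 CPM in the first bin and 3.12 CPM in the last in Ctrl, and in cKO 47.1 CPM in the first and 5 UMIs (0.325 to 2.33 CPM) in the last. *Cebpe* had 162 and 594 CPM in Ctrl, and 172 and 586 CPM in cKO. *Cebpe* had 494 CPM in Ctrl and 555 CPM in cKO in the third bin, in which *Cebpa* still had 26.1 CPM in Ctrl and 10.3 in cKO. In that bin, where secondary granule genes made 54.1% to 97.3% of the granule RNA, the median depth was 14624.5 UMIs in Ctrl and 1893 in cKO, and its part in the *Cebpa* difference was not tested. The imNeu-like and mNeu-like cells were likewise ordered by late neutrophil RNA. *Cebpe* went from 538 to 74.0 CPM in Ctrl and from 511 to 20.6 CPM in cKO, *Cebpd* from 205 to 357 and from 161 to 401 CPM, and *Cebpb* from 16.4 to 122 and from 12.0 to 100.7 CPM. In the last bin *Cebpe* was 74.0 CPM (59.8 to 90.4) in Ctrl and 20.6 CPM (15.0 to 27.6) in cKO, with intervals apart, at median depths of 2372 and 5467 UMIs. *Cebpa* in the later bins, 21.8 to 25.1 CPM in Ctrl and 10.1 to 14.7 CPM in cKO, was above its level in the earliest bin (4.99 and 4.39 CPM).

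**Figure D4:**
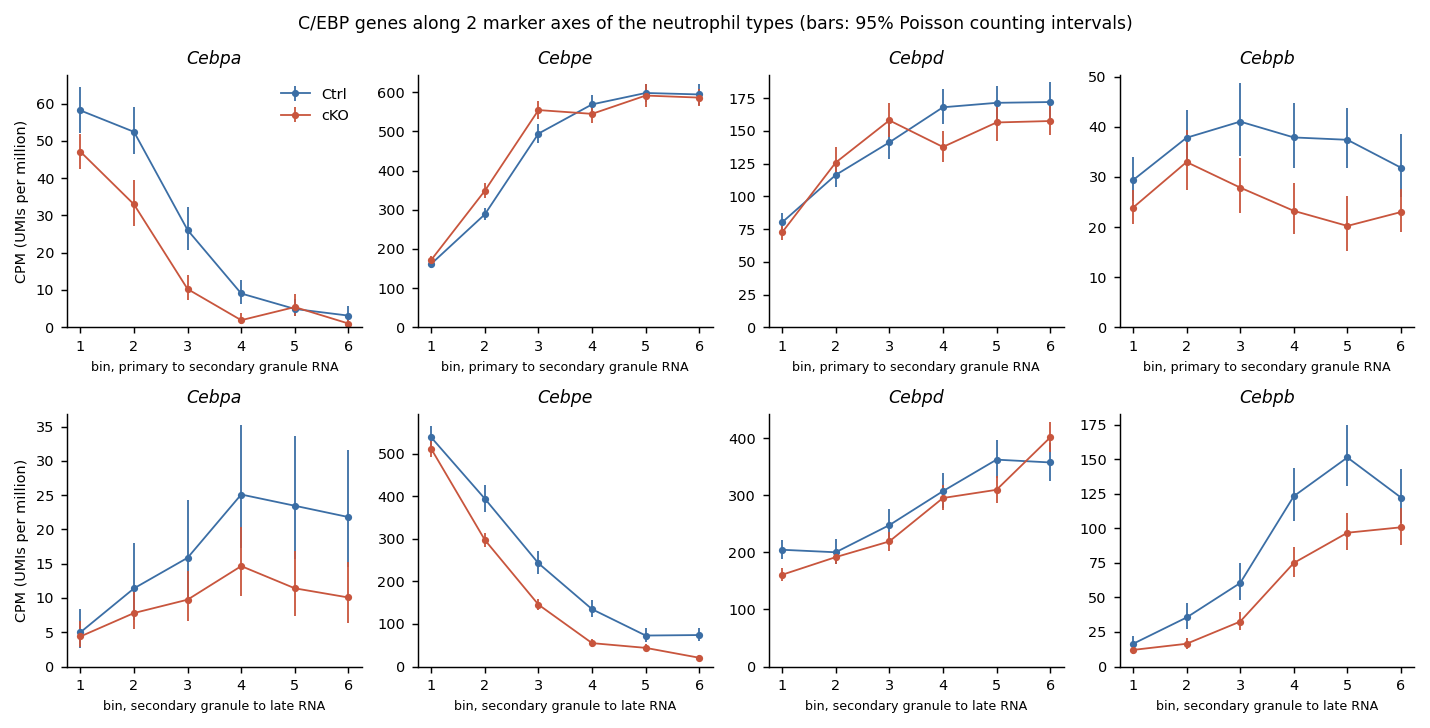
CPM of *Cebpa*, *Cebpe*, *Cebpd* and *Cebpb* (y axes, from 0) in 6 bins of cells ordered from primary to secondary granule RNA (upper row, ProNeu-like and cycling PreNeu/imNeu-like cells) and from secondary granule to late neutrophil RNA (lower row, imNeu-like and mNeu-like cells), with 95% Poisson counting intervals. *Cebpa* runs down as *Cebpe* runs up in the upper row, and *Cebpe* runs from 538 to 74.0 CPM (Ctrl) as *Cebpd* and *Cebpb* run up in the lower row.

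Within single types, the share of cells with 1 C/EBP gene was in most pairs close in cells with and without another. After thinning, 18.3% of Ctrl ProNeu-like cells with *Cebpa* and 21.0% of those without it had *Cebpe*, and in cKO 24.3% and 23.0%. For *Cebpd* and *Cebpe* in the cycling cells the shares were 42.7% with and 41.9% without *Cebpd* in Ctrl, and 43.6% and 42.4% in cKO. In mNeu-like cells *Cebpe* was found in 9.61% of cells with *Cebpb* and 12.6% of cells without it in Ctrl, and in 7.69% and 8.80% in cKO. *Cebpd* was found in 30.1% of Ctrl mNeu-like cells with *Cebpb* and 26.3% of those without it, and in 28.5% and 25.3% in cKO. Pairs further apart included *Cebpe* by *Cebpd* in Ctrl ProNeu-like cells (25.0% and 20.4%). In the 51 cKO GMP-like cells with at least 1000 UMIs, *Cebpb* by *Cebpa* was 17.3% and 3.04% (4.52% and 5.57% in Ctrl). In the same cells *Cebpe* by *Cebpa* was 1.42% and 4.37% (2.20% and 2.57% in Ctrl). Only 4.9% of these 51 cells had *Cebpa* after thinning. Both *Cebpa* and *Cebpb* were in 0.849% and both *Cebpa* and *Cebpe* in 0.0696%, so neither difference is read. Unthinned shares were higher in cells with the partner gene in most pairs (89.6% against 81.9% for *Cebpe* by *Cebpa* in Ctrl ProNeu-like cells), where depth also differs between the cells.

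Across the 16 sums of the 8 types and 2 libraries, as a description over points that share a library by 8s, log2(CPM + 1) of *Cebpd* went with *Cebpb* (r = 0.69) and *Cebpe* (r = 0.68), and *Cebpz* went against *Cebpd* (r = -0.78) and *Cebpe* (r = -0.72). *Cebpa* was closest to *Cebpg* (r = 0.59) and *Cebpb* (r = 0.50). Among 8465 genes with at least 20 CPM in 1 of the sums, the pattern of *Cebpa* was most like those of *Bcr* (r = 0.95), *Fndc3a* and *Ccl9* (both r = 0.94). The closest to *Cebpe* were *Gca* (r = 0.98), which encodes grancalcin, *Agpat2* (r = 0.98) and *Rab28* (r = 0.96). The closest to *Cebpd* were *Dok3* (r = 0.99), *Mtus1* (r = 0.98) and *Tbc1d2* (r = 0.97), and to *Cebpb* *Mpeg1* (r = 0.96), itself a monocyte marker of the assignment, *Atp6v1b2* and *Rab8a* (both r = 0.92). For *Cebpg* they were *Rap2b* (r = 0.95), *Lipa* (r = 0.94) and *Itgb7* (r = 0.92). *Cebpz* had 2175 genes with r above 0.9, led by *Pdha1*, *Hmgxb3* and *Bclaf1* (all r = 0.99), where *Cebpb* had 9 and *Cebpe* 34.

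Between the libraries, most C/EBP levels were lower in cKO, as were most genes. Of the 48 values (6 genes in 8 types), 43 had a log2 ratio of cKO over Ctrl below 0, 18 were lower beyond 1.5-fold and 0 were higher beyond it. The median log2 ratio of all genes with at least 10 UMIs was itself below 0 in every type, from -0.12 in HSC/MPP-like to -0.52 in mNeu-like cells, so each value is read beside it. The members' median was -0.57 in HSC/MPP-like cells (all genes -0.12), -0.58 in GMP-like (-0.18), -0.39 in ProNeu-like (-0.29), -0.44 in cycling PreNeu/imNeu-like (-0.35), -0.43 in imNeu-like (-0.38), -0.63 in mNeu-like (-0.52), -0.42 in monocyte-like (-0.21) and -1.23 in MEP-like cells (-0.15). These are values of 2 libraries and not tests of the genotype. The interval of 38 of the 48 ratios lay below 0 and that of 2 above 0. The share of all genes with such intervals was not counted. These counts, and those by gene below, therefore describe the values and are no result about the members.

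Lower beyond 1.5-fold were 3 of 6 members in HSC/MPP-like cells, where 16.4% of 11760 genes were, and 3 of 6 in GMP-like cells (21.2% of genes). In ProNeu-like cells it was 1 member (23.1% of genes), in cycling PreNeu/imNeu-like cells 2 (27.5%), in imNeu-like cells 1 (34.0%), in mNeu-like cells 3 (44.9%), in monocyte-like cells 1 (21.8%) and in MEP-like cells 4 (20.3%). Higher beyond 1.5-fold was 0 of 6 members in each type, against 7.34% of genes in HSC/MPP-like, 5.03% in GMP-like, 3.16% in ProNeu-like, 2.54% in cycling PreNeu/imNeu-like, 3.63% in imNeu-like, 3.27% in mNeu-like, 4.92% in monocyte-like and 7.02% in MEP-like cells. When the libraries were scaled by the median of ratios instead of total UMIs, the split of all genes into higher and lower became 13.1% and 18.5% in mNeu-like, 11.2% and 15.0% in imNeu-like, 8.40% and 11.4% in cycling PreNeu/imNeu-like and 8.33% and 8.46% in ProNeu-like cells, and the members lower beyond 1.5-fold went from 18 to 7 of 48 and those higher from 0 to 1 (*Cebpd* in monocyte-like cells). In the other types this scaling gave 10.2% and 12.6% in HSC/MPP-like, 8.49% and 14.2% in GMP-like, 10.6% and 12.8% in monocyte-like and 11.3% and 14.7% in MEP-like cells.

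By gene, *Cebpb* was lower in cKO in all 8 types with the interval below 0 in each, from log2 -0.33 in ProNeu-like to -1.50 in MEP-like cells, but with the mean of per-cell shares both of these types turned above 0 (0.18 and 0.35). *Cebpz* was lower in all 8 types as well, from -0.41 to -0.71 with every interval below 0, and under median-of-ratios scaling only its mNeu-like value was above 0 (0.09). *Cebpa* was below 0 in 8 of 8 types and its interval in 5, while in GMP-like, imNeu-like and MEP-like cells the interval included 0. It had -1.24 (-1.80 to -0.70) in cycling PreNeu/imNeu-like, -0.83 in mNeu-like, -0.56 in HSC/MPP-like and -0.45 in ProNeu-like cells. Most monocyte and HSC/MPP markers were lower with it. In the cycling cells 9 of 11 monocyte and 9 of 10 measured HSC/MPP markers were lower in cKO by more than *Cebpa*. In mNeu-like cells 8 of 11 and 10 of 10 were lower by more than *Cebpa*. Of genes with at least 50 UMIs that were found in both libraries, 2.23% in the cycling and 19.7% in the mNeu-like cells were. The markers were counted from 10 UMIs on, also with 0 UMIs in cKO, so these shares do not match their limits. In the cycling cells *Flt3* had 10 Ctrl UMIs and 1 cKO UMI and *Angpt1* 10 and 0, and such low counts scatter more. These markers also enter the assignment, so their levels in a type are not independent of it. The summed HSC/MPP markers had 32.3 and 12.0 CPM in the cycling cells and 52.2 and 14.1 CPM in the mNeu-like cells. The summed monocyte markers had 1300 and 1430 CPM and 1506 and 1644 CPM, most of it *Ly6c2* (1222 and 1387 CPM in the cycling cells). *Myb* (-0.86) and *Mpo* (-0.79) were lower by less than *Cebpa* in the cycling cells. The ProNeu markers *Elane* (0.09), *Prtn3* (0.54) and *Ctsg* (-0.42) were not lower beyond 1.5-fold there. In mNeu-like cells *Elane* (-0.61), *Prtn3* (-0.51) and *Ctsg* (-0.45) were lower by less than *Cebpa*, and *Mpo* (-1.43) by more. The part of RNA from other cells in the *Cebpa* value was not tested. Under median-of-ratios scaling *Cebpa* of the cycling cells was -0.89, and its imNeu-like value changed sign to 0.04.

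*Cebpe* was close to equal in the cells that hold most of it, with log2 0.07 (0.00 to 0.14) in ProNeu-like, 0.00 (-0.04 to 0.05) in cycling PreNeu/imNeu-like and -0.19 in imNeu-like cells, each above the median of all genes there (-0.29, -0.35 and -0.38). In mNeu-like cells it was -0.70 (-0.83 to -0.58), below the -0.52 of all genes. Its ratios in HSC/MPP-like (-0.95) and MEP-like cells (-1.34) stand beside those of *Camp*, -1.80 and -0.23, and its ratio in monocyte-like cells (-0.60) beside *Camp* levels of 1670 and 833 CPM, and the part of background neutrophil RNA in them was not tested. *Cebpd* was likewise near 0 from ProNeu-like cells on, with -0.07 there, -0.11 in mNeu-like and -0.23 in imNeu-like cells, whereas in GMP-like cells it was -0.61 (-0.20 with a stricter margin of assignment). With median-of-ratios scaling both genes were above 0 in ProNeu-like, cycling and imNeu-like cells, by 0.19 to 0.35, and in mNeu-like cells *Cebpd* was at 0.46 and *Cebpe* at -0.14.

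*Cebpd* in monocyte-like cells was the highest of the 48 values. It had 99.4 CPM (91.4 to 108) in Ctrl and 149 CPM (137 to 161) in cKO, a log2 ratio of 0.58 (0.41 to 0.75), just inside 1.5-fold (0.585) and above 96.7% of genes in that type. It was 0.79 under median-of-ratios scaling and 0.86 with the mean of per-cell shares, both beyond 1.5-fold. The direction was the same in dividing monocyte-like cells (95.7 and 131 CPM) and in non-dividing ones (116 and 192 CPM), while *Cebpb* was lower in both (149 and 116 CPM, 190 and 115 CPM). After thinning, 9.16% of 678 Ctrl and 15.1% of 308 cKO monocyte-like cells had a *Cebpd* UMI. These were the cells with at least 1000 UMIs of 698 and 356, so a larger part of the cKO cells was left out. At the other end, *Cebpd* in MEP-like cells had 17.4 CPM in Ctrl and 4.67 CPM in cKO, log2 -1.89 (-2.95 to -0.99), with 90 and 11 UMIs. Of 22 measured C/EBP target genes, 14 were also lower beyond 1.5-fold in the MEP-like cells (20.3% of all genes). Among them were *Mpo* (347 and 116 CPM) and *Elane* (215 and 82.9 CPM), and *Spi1* had 30.1 and 17.4 CPM. *Lcn2* (454 and 474 CPM), *Csf2rb*, *Lyz2*, *Ltf*, *Camp*, *Ngp*, *S100a8* and *S100a9* were not, with log2 -0.55 to 0.11. The part of myeloid RNA in the *Cebpd* value was not tested. Thinned shares of *Cebpd* went the other way, with 1.80% of 303 Ctrl and 2.33% of 80 cKO cells. A count of 0 would allow up to 0.977% and 3.66%. With the mean of per-cell shares the log2 ratio turned to 0.33, so the direction in these cells rests on how cells are weighted.

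*Cebpg* ranged from -0.59 in HSC/MPP-like to 0.21 (-0.20 to 0.62) in GMP-like cells, with a median of -0.46. Its value in the cycling cells, -0.29, became 0.06 under median-of-ratios scaling. It was the only member above 0 in the GMP-like cells, with 47.9 and 55.6 CPM on 175 and 71 UMIs.

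**Figure D5:**
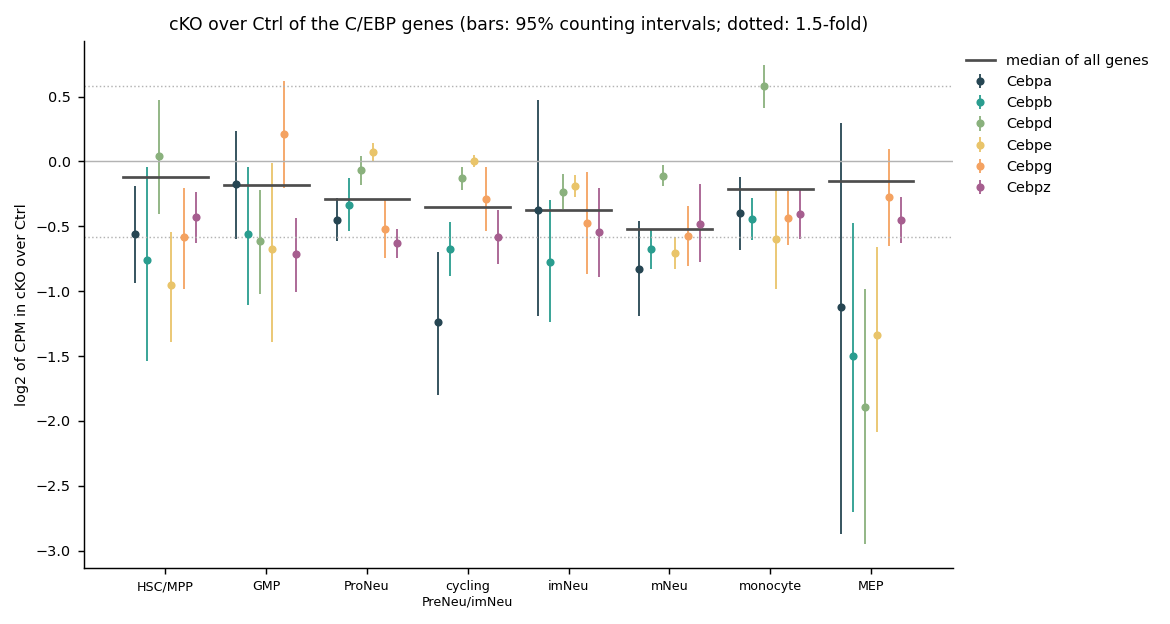
log2 ratio of CPM in cKO over Ctrl (y axis) for the 6 C/EBP genes in the 8 types, with 95% counting intervals, a grey line for the median of all genes in the type, and dotted lines at 1.5-fold. Most points lie below 0 and near or below the grey lines, *Cebpd* of monocyte-like cells stands highest at 0.58, and the MEP-like points reach down to -1.89.

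Genes that encode partners and regulators of C/EBP proteins were read the same way. Of the 20 listed symbols 19 were in the files, and the other was *Rfwd2*, listed as another symbol of *Cop1*. Of these genes, *Irf8* and *Klf4* are also markers of the assignment. Their values are on the scale of total UMIs, from which median-of-ratios scaling differed by -0.09 in HSC/MPP-like to -0.56 in mNeu-like cells, so that every ratio is higher under it and values below 0 by less than this turn above 0. In HSC/MPP-like cells 5 of 17 measured were lower beyond 1.5-fold, where 16.4% of all genes were (*Trib1*, *Irf8*, *Myb*, *Klf4* and *Id2*) and 2 were higher, against 7.34% of genes (*Batf* and *Id1*). In ProNeu-like cells 3 of 16 were lower, against 23.1% of genes (*Cop1*, *Cbfb* and *Myb*) and 1 was higher, against 3.16% (*Id1*). In the cycling cells 5 of 16 were lower (27.5% of genes) and 0 higher (2.54%). For mNeu-like cells the counts were 7 (44.9%) and 0 (3.27%) of 18. Monocyte-like cells had 4 (21.8%) and 1 (4.92%) of 17, and GMP-like cells 5 (21.2%) and 1 (5.03%) of 16. ImNeu-like cells had 7 (34.0%) and 1 (3.63%) of 16, and MEP-like cells 9 (20.3%) and 0 (7.02%) of 15. *Myb*, which keeps progenitors immature, was lower beyond 1.5-fold in 7 of 8 types, down to -1.34 in mNeu-like cells and with -0.44 in GMP-like cells, and *Gfi1*, a repressor needed for neutrophil formation, in 6 of 8, counts that the other scaling took to 3 and 4 of 8. *Gfi1* had 152 and 102 CPM in ProNeu-like cells (log2 -0.57). *Spi1*, encoding PU.1, was between 0.00 and 0.38 in 7 types and -0.79 in MEP-like cells. *Trib1* and *Cop1*, whose products together lead C/EBPα to degradation, were below 0 in every type where they were measured (*Trib1* -0.18 to -1.13 in 7 types, *Cop1* -0.30 to -1.17 in 8), but under the other scaling *Trib1* was above 0 in ProNeu-like cells (0.10) and *Cop1* in mNeu-like (0.03) and imNeu-like cells (0.12). *Atf4*, a partner of C/EBPγ, lay between -0.04 and -0.70, and was below 0 in 4 of 8 types under the other scaling. *Id1*, an inhibitor of basic helix-loop-helix factors, was above 0 in all 7 types where it was measured. It had 18.9 and 32.3 CPM in ProNeu-like cells (log2 0.77). Under median-of-ratios scaling, the lower and higher genes of this list were 4 (18.5% of all genes) and 6 (13.1%) in mNeu-like cells. ProNeu-like cells had 0 (8.46%) and 3 (8.33%), and imNeu-like cells 3 (15.0%) and 1 (11.2%). Cycling cells had 3 (11.4%) and 2 (8.40%), and monocyte-like cells 3 (12.8%) and 2 (10.6%). HSC/MPP-like cells had 2 (12.6%) and 2 (10.2%), GMP-like cells 5 (14.2%) and 2 (8.49%), and MEP-like cells 9 (14.7%) and 0 (11.3%).

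Of 24 textbook target genes of C/EBP factors, 12 were also among the markers that define the types, so their differences between types are no finding. Their ratios of cKO over Ctrl within a type are not independent of the assignment either. The medians and counts of the list are therefore a description only. The list's median log2 ratio was above that of all genes in the neutrophil line and the monocytes: 0.21 against -0.29 in ProNeu-like, -0.14 against -0.35 in cycling PreNeu/imNeu-like, -0.18 against -0.38 in imNeu-like, -0.13 against -0.52 in mNeu-like and -0.02 against -0.21 in monocyte-like cells. In the progenitors outside that line it was below, with -0.40 against -0.12 in HSC/MPP-like and -0.83 against -0.15 in MEP-like cells, and in GMP-like cells it was -0.13 against -0.18. In ProNeu-like cells 4 of 24 were higher beyond 1.5-fold, against 3.16% of all genes (*Ctsg*, *Lyz2*, *Lcn2* and *Socs3*) and 1 was lower (*Il6ra*). *Lcn2*, a secondary granule protein, had 444 and 735 CPM there, and *Ctsg*, a primary granule protease, 3989 and 6182 CPM. In mNeu-like cells *Lcn2*, *Cd14* and *Socs3* were higher (3.27% of genes) and *Csf2ra*, *Elane* and *Mpo* lower (44.9%), and in monocyte-like cells *Lyz2*, *Mmp8*, *Hp* and *Socs3* were higher (4.92%) and *Mpo*, *Ltf*, *Camp* and *Ngp* lower (21.8%). *Socs3*, which limits cytokine signalling, was higher beyond 1.5-fold in 4 of the 5 types where it had a finite ratio. It had 33.3 and 51.4 CPM in mNeu-like cells but only 5 and 12 UMIs in ProNeu-like cells. In imNeu-like cells *Socs3* had 0 UMIs in Ctrl and 15 in cKO, higher in cKO but without a finite ratio. It is left out of the imNeu-like target counts given here, whereas the share of all genes includes such genes. *Csf3r*, the G-CSF receptor, was below 0 in 8 of 8 types and in 2 of 8 under the other scaling, with 1552 and 1060 CPM in mNeu-like cells (log2 -0.55, and 0.01 under the other scaling). The counts of the other types were 2 higher (7.34% of genes) and 11 lower (16.4%) of 24 in HSC/MPP-like, 3 (5.03%) and 3 (21.2%) of 23 in GMP-like, 0 (2.54%) and 3 (27.5%) of 24 in cycling, 0 (3.63%) and 6 (34.0%) of 23 in imNeu-like and 0 (7.02%) and 14 (20.3%) of 22 in MEP-like cells. Median-of-ratios scaling took the higher and lower target genes to 8 and 0 in ProNeu-like cells (8.33% and 8.46% of all genes). Cycling cells had 6 and 1 (8.40% and 11.4%), imNeu-like cells 8 and 3 (11.2% and 15.0%). For mNeu-like cells the counts were 11 and 1 (13.1% and 18.5%), for monocyte-like cells 6 and 2 (10.6% and 12.8%). GMP-like cells had 4 and 1 (8.49% and 14.2%). More were still lower than higher among HSC/MPP-like cells, 2 and 10 (10.2% and 12.6%), and MEP-like cells, 0 and 12 (11.3% and 14.7%). On total UMIs, the 11 lower genes of the HSC/MPP-like cells were *Il6ra*, *Lyz2*, *Ltf*, *Lcn2*, *Camp*, *Ngp*, *Cybb*, *Itgam*, *S100a8*, *S100a9* and *Fcnb*. Other genes of neutrophils in the list were not lower there, with log2 0.69 for *Mmp8*, 0.23 for *Mmp9* and 0.11 for *Hp*. *Elane*, *Prtn3* and *Ctsg* had 0.29 to 0.45, and *Mpo* -0.29.

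The C/EBP core letters TTGCNNAA, searched on both strands, were in 10.8% of all 32851 promoters. Of the 24 targets, 19 had a RefSeq promoter (*Csf1r*, *Csf2rb*, *Mmp9*, *Cd14* and *Hp* had no entry), and 6 of these 19 held the letters, with 8 matches. They were *Ltf*, *Lcn2*, *Ngp*, *Mmp8*, *S100a9* and *Fcnb*, all genes of secondary or later granules or of the neutrophil cytosol and none of them a primary granule protease. Each match is shown with 10 bases on either side on the strand of the gene, with the core in capitals. They are shown so that the letters and their neighbours can be compared between these promoters.
Ltf, chr9:111019207-111019234 (+): ggcaggcctaTTGGGCAAtagggtgggg
Lcn2, chr2:32387938-32387965 (-): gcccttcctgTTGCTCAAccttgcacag
Ngp, chr9:110419660-110419687 (+): tcctggtttaTTGCCCAAacctccttgc
Ngp, chr9:110419787-110419814 (+): ccggcagttcTTGGGCAAggcagtctca
Mmp8, chr9:7558400-7558427 (+): taggcagaagTTGCTCAAgatgtagctt
S100a9, chr3:90695940-90695967 (-): gtaggctgtcTTGCTTAAgatttgggcg
Fcnb, chr2:28085096-28085123 (-): aaggcaggccTTTTGCAAacagaggtgc
Fcnb, chr2:28084984-28085011 (-): tttaggtctcTTGTGCAAccagaggcct
The match of *Ltf* overlaps a CCAAT of the other strand, and those of *Ngp* lie 138 and 11 bases before the start. In Ctrl imNeu-like cells these 6 genes had between 363 CPM (*Fcnb*) and 172225 CPM (*S100a9*). *Ltf*, *Lcn2*, *Ngp*, *Mmp8* and *Fcnb* are also markers of the assignment, so their levels by type are no finding about the letters. *Camp* and *S100a8* had a promoter entry and no match. The 3 promoters of *Cebpa*, *Cebpb* and *Cebpg* did not hold the letters in their windows. A match describes letters and not a bound site.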

How the data were processed

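Single cells were captured with the BMKMANU DG1000 3′ protocol and sequenced on an Illumina NovaSeq instrument, and the authors deposited raw UMI counts per gene and barcode made with Cell Ranger 5.0.0 against mm10, with no normalization. UMI counts of 3′ ends were not divided by gene length. Barcodes were kept if they had 200 to 9000 genes and a mitochondrial share of UMIs of 30% or less. Pearson residuals (theta 2, limits -5 and 10) were averaged over the markers of each type, and a cell took the type with the highest mean if this was at least 0.5, at least 0.25 above the next, and 3 markers were detected. Cells passing for 2 types within that margin stayed unassigned, and no doublet caller was run. Cells with secondary granule genes were divided at 0.05% of UMIs in 8 cell cycle genes. Levels are summed UMIs scaled by the total of the same cells (CPM) with exact Poisson 95% intervals, shares have exact Clopper-Pearson intervals, and ratios of libraries exact binomial ones, all covering counting error only. Genes entered a comparison with at least 10 UMIs over both libraries, and values beyond 1.5-fold were counted. Labels gave 1 library per group, so no test was made. The named genes are the 6 members, *Map4k4*, the partner and target lists and the 3 genes most correlated with each member over the type and library sums, and other names were chosen after their values were seen. Members and lists were chosen with earlier results of these data known, and limits of assignment, the cycle limit and subgroups after seeing the data. Alternatives were another scaling, per-cell means, depth and mitochondrial limits, a wider margin, every second marker, another denominator and another cycle limit. The code used numpy 2.4.6, pandas 2.3.3 and scipy 1.17.1 under Python 3.11.15 and was tested on simulated data. Of 100 simulated cells for each type, 54.0% of GMP-like and 89.0% of MEP-like cells returned to their type. In the other compared types it was 97.0% to 100.0%. Of genes simulated without change, 6.95% (ProNeu-like) to 14.0% (GMP-like) passed 1.5-fold.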

Additional observations from a re-analysis of the deposited data

Results flagged for a closer look

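For 2 C/EBP genes the difference between cKO and Ctrl went opposite ways in 2 cell types, with counting intervals on either side of 0. The log2 ratio of *Cebpd* was 0.58 in monocyte-like cells and -1.89 in MEP-like cells, where it rests on 90 and 11 UMIs and turned to 0.33 with the mean of per-cell shares, so that its signs are not opposite under that setting. That of *Cebpe* was 0.072 in ProNeu-like cells and -1.34 in MEP-like cells, where it rests on 117 and 21 UMIs and *Camp* was 977 and 830 CPM. With 1 library for each condition, neither difference between types was tested.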

How the results depend on the processing

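No paired analysis was possible because each condition has 1 library, and for the same reason no library could be left out. Of the 48 log2 ratios of cKO over Ctrl, 43 were below 0 on total UMIs, 35 under median-of-ratios scaling, 38 with the mean of per-cell shares, and 43 to 45 under each of the other 7 settings, 1 of which, the cycle limit at 0.1% of UMIs, was chosen after seeing the data. Median-of-ratios scaling took the values lower beyond 1.5-fold from 18 to 7 and those higher from 0 to 1, and gave *Cebpb* -0.23 and *Cebpg* -0.23 in monocyte-like, *Cebpd* 0.46 in mNeu-like and *Cebpe* 0.35 in cycling PreNeu/imNeu-like cells. Per-cell means turned *Cebpb* (0.35) and *Cebpd* (0.33) in MEP-like, *Cebpb* (0.18) and *Cebpd* (0.17) in ProNeu-like and *Cebpe* (0.56) in monocyte-like cells, and gave Ctrl peak levels of 182 for *Cebpb*, 332 for *Cebpd*, 552 for *Cebpe* and 179 CPM for *Cebpz*. Every second marker turned *Cebpe* in GMP-like cells (0.54) and gave 320.3 CPM for *Cebpd*. A stricter margin gave 169 for *Cebpb* and 321 CPM for *Cebpd*, and moved GMP-like ratios of *Cebpb* (-0.56 to -1.29), *Cebpe* (-0.67 to -1.73) and *Cebpd* (-0.61 to -0.20) and those of *Cebpe* in HSC/MPP-like (-0.95 to -0.46) and mNeu-like cells (-0.70 to -0.88). Cells of at least 2000 UMIs gave 280 CPM of *Cebpd* (279.6) and a ratio of 0.0081 in mNeu-like cells. A denominator without mitochondrial, ribosomal, haemoglobin and immunoglobulin genes gave 80.6 for *Cebpa*, 197 for *Cebpb*, 320.4 for *Cebpd*, 629 for *Cebpe*, 119 for *Cebpg* and 282 CPM for *Cebpz*. The causes were not tested. The highest Ctrl type was the same under all settings for *Cebpb*, *Cebpd*, *Cebpe* and *Cebpg*, whereas *Cebpa* was also highest in GMP-like or ProNeu-like cells and *Cebpz* in HSC/MPP-like cells. Depth limits the MEP-like and GMP-like cells of cKO, where 5 to 71 UMIs stand behind all members but *Cebpz* and the MEP-like *Cebpg*.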

Other observations

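Eosinophil-like cells, too few to compare, had a *Cebpe* level close to that of the neutrophil precursors, with 504 CPM in 7 Ctrl cells and 540 CPM in 6 cKO cells. The *Camp* levels of these cells were 566 and 16900 CPM, so that *Cebpe* had 889 UMIs for each 1000 of *Camp* in Ctrl and 31.9 in cKO.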
